A study of Drosophila melanogaster with 3 samples.

Results

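The genes described here encode chemosensory receptors and structural proteins of the cuticle in Drosophila melanogaster. They were chosen by symbol among 13945 protein-coding genes on the 6 chromosome arms 2L, 2R, 3L, 3R, 4 and X, and 279 genes met the rule. Of these, 179 were receptor genes, namely 59 odorant receptor (Or), 60 gustatory receptor (Gr) and 60 ionotropic receptor (Ir) genes. The other 100 were cuticle genes, namely 70 Cpr, 7 Ccp and 23 Twdl genes, and 0 genes had a symbol of the Cpap form. The measurement was chromatin immunoprecipitation with sequencing (ChIP-seq), which finds where a protein sits on the genome. The protein encoded by CG12155 was expressed from a transgene as a fusion with green fluorescent protein (eGFP) at its C terminus and was precipitated with an antibody against GFP. The labels give 1 group of 3 biological replicates of whole, mixed-sex embryos aged 0 to 24 h, all from this transgenic line, and therefore no comparison between conditions. The promoter that drives the transgene is not given in the sources used here, and a control without the tag was not analysed here.

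Odorant and gustatory receptors are membrane proteins of sensory neurons, where most neurons use few receptor genes, and odorant receptors work with the shared coreceptor Orco. Ionotropic receptors descend from glutamate receptors and work with the coreceptors Ir8a, Ir25a and Ir76b. Cpr proteins carry a chitin-binding consensus, Ccp genes form the cuticle cluster at cytological position 84A, and Twdl (Tweedle) genes encode a separate family of cuticle proteins. Many genes of both kinds lie in tandem clusters, and their transcription is typically restricted to particular cells and stages. In whole embryos, a site occupied in few cells and a site occupied weakly in many cells cannot be told apart.

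Few of these genes had one of the strongest peaks at their promoter. The optimal set holds 5202 peaks that passed the authors' test of reproducibility between replicates, and a promoter was taken as 500 bp either side of a transcription start site (TSS). An optimal summit lay in the promoter of 2 of the 279 genes (0.717%, 95% Wilson interval 0.197 to 2.58%), against 26.7% of the other protein-coding genes and 26.2% of all of them. Both were receptor genes, Ir60e and Gr63a. The cuticle genes gave 0 of 100, and a count of 3 would have been 3%. The Or genes gave 0 of 59, for which 3 counts would be 5.08%. These shares are descriptions with no test, and their intervals cover counting error over genes only.

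The replicates gave the same picture when each was read from its own list. Among the 5202 strongest regions of replicates 1, 2 and 3, a summit lay in the promoter of 1, 1 and 2 members, against 3691, 3496 and 3537 other genes. Over all genes the shares were 26.5%, 25.1% and 25.4% in replicates 1, 2 and 3. The mean share was 0.478 ± 0.207% of members and 26.2 ± 0.752% of other genes (SD, n = 3 replicates each). The highest share of members, 0.717%, was below the lowest share of other genes, 25.6%. Ir60e was the gene found in all 3 replicates, and Gr63a was found in replicate 3.

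**Figure D1:**
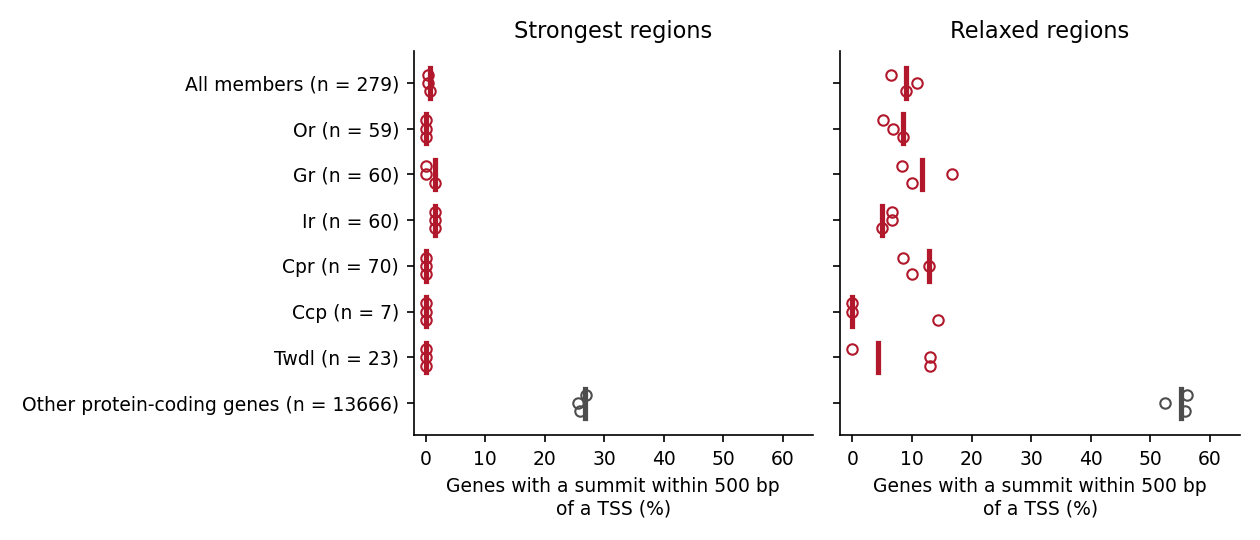
Share of genes (%) with a summit within 500 bp of a TSS, for all members, each family and the other protein-coding genes, in the strongest regions (left) and the relaxed regions (right). Circles are replicates 1, 2 and 3 from top to bottom, and the vertical bar is the optimal set (left) or the pooled relaxed list (right). The members reach 0.717% in the optimal set, against 26.7% of other genes, and 8.96% in the pooled relaxed list, against 55.1%.

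Gr63a (FBgn0035468, chr3L:3894999-3896603, minus strand, dm6) encodes a subunit of the carbon dioxide receptor. The peak at chr3L:3896646-3897075 ranked 4964 in the optimal set, and its summit lay 258 bp from the Gr63a start. The same summit lay at -39 bp from the start of Lamtor4, which faces Gr63a and encodes a subunit of the Ragulator complex on lysosomes (negative positions are upstream). The summits in this promoter ranked 5734, 5933 and 4676 in replicates 1, 2 and 3, so replicate 3 alone placed it among its 5202 strongest. The windows of both starts are shown because they share this gap, each from 150 bp before to 30 bp after the TSS on the strand of its own gene. Capitals mark motif matches.
Lamtor4 (chr3L:3896750-3896929, plus strand): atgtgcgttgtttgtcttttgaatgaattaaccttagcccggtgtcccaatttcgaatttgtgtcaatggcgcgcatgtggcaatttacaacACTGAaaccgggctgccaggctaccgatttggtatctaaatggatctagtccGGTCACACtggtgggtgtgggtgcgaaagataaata
Gr63a (chr3L:3896574-3896753, minus strand): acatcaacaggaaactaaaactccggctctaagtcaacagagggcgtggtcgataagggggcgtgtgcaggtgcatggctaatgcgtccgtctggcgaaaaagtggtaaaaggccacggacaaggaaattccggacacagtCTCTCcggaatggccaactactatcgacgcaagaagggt
The Lamtor4 window holds GGTCACAC, the core of the promoter element motif 1, with its first base at -6 bp. It also holds TCAGT, the initiator letters, on the opposite strand, with the base farthest upstream of Lamtor4 at -58 bp. The Gr63a window holds GAGAG on the opposite strand, with the base farthest upstream of Gr63a at -9 bp, and neither motif 1 nor TATAAA.

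Ir60e (FBgn0035019, chr2R:24529554-24531272, minus strand) is an ionotropic receptor gene. Its peak at chr2R:24531360-24531789 ranked 2774, with ranks of 2684, 2437 and 3096 in replicates 1, 2 and 3. The summit lay 303 bp from the Ir60e start and at -19 bp from the start of CG13585, which faces it. Both promoter summits of the members were therefore nearer to the start of another gene.

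The members seldom share a promoter region with a facing gene. A start on the opposite strand within 500 bp upstream (head to head) was found for 17 of 279 members (6.09%), against 27.8% of other genes. It was found for 16 of 179 receptor genes and for 1 of 100 cuticle genes. Among head-to-head genes, 2 of 17 members (11.8%) had an optimal promoter summit, against a background of 52.2% of all head-to-head genes. Among the rest, 0 of 262 members had one, against a background of 16.4%. In the relaxed list the counts were 4 of 17 head-to-head members against 78.8% of all such genes, and 21 of 262 other members against 44.9%. In promoter sequence that belongs to exactly 1 gene, a count added after seeing the data, members held 0 optimal summits in 278 kb, where 3 would be 1.08 per 100 kb. Other genes held 13.5 per 100 kb in such sequence. The relaxed list gave 7.57 per 100 kb in members and 50.3 in other genes.

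More members had a promoter summit once weaker regions were counted, and whether these regions mark binding was not tested. The pooled relaxed list holds 30000 regions, which the authors describe as peaks and background, and its strongest 5202 are the optimal set. It placed a summit in the promoter of 25 of 279 members (8.96%, Wilson interval 6.14 to 12.9%), against 55.1% of other genes and 54.2% of all genes. By family these were 5 Or, 7 Gr, 3 Ir, 9 Cpr, 0 Ccp and 1 Twdl genes. The relaxed lists of replicates 1, 2 and 3 gave 18, 30 and 25 members. The mean was 8.72 ± 2.16% of members and 54.8 ± 1.97% of other genes (SD, n = 3 replicates each).

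Most of these summits were low in the list. The median rank of the best promoter summit was 20788 over the 25 members and 5495 over the other genes that had one. In ranks 20001 to 30000 lay 16 of the 25, which is 5.73% of members, and 5.81% of all genes had their best summit there. In ranks 5203 to 10000 the shares were 1.08% of members and 11.6% of all genes. Over all ranks of the relaxed list, member promoters held 9.11 summits per 100 kb, those of other genes 58.8 and whole arms 22.4. Per length of promoter, ranks 20001 to 30000 gave 6.41 summits per 100 kb in members and 11.1 in other genes. The optimal set gave 0.675 per 100 kb in members and 19.5 in other genes, so the gap between members and other genes was widest at the top of the list and smallest at its end. Of the 27 relaxed summits in member promoters, 7 overlapped a region in all 3 replicates, 11 in 2 and 9 in 1. Over all pooled relaxed regions, 51.3% overlapped one in all 3 replicates. That share covers all ranks, whereas 19 of the 27 summits lay in ranks 20001 to 30000, and no share at matched ranks is given.

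After Ir60e and Gr63a, the strongest relaxed promoter summit was that of the cuticle gene Cpr67Fb, ranked 7634 at -450 bp from its start. Replicates 1 and 3 ranked their own summit in this promoter 7862 and 8515, and replicate 2 had no summit there. The strongest regions that overlapped the pooled one ranked 7862, 19658 and 5134 in replicates 1, 2 and 3. Gr97a, a gustatory receptor gene, had rank 9111, with 5332 and 6644 in replicates 1 and 2. Replicate 3 had no summit in this promoter, but its region of rank 10439 overlapped the pooled one. The pooled summit of Gr97a lay at -20 bp from the facing gene CG5521. Gr39b ranked 9719, with 17122, 9633 and 9977 in replicates 1, 2 and 3. It was the last of the 25 members with a promoter summit in each replicate. Cpr51A had promoter summits ranked 25370, 21686 and 24935 in replicates 1, 2 and 3, but none in the pooled list. Of the 25 members, 3 had a summit in their promoter in all 3 replicates, 12 in 2, 9 in 1 and 1 in 0. The same split over all genes with a pooled promoter summit is not given here, so these counts are not set against a background.

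Or10a and Gr10a share 1 start and so share 1 summit, at rank 10935, with 8240 and 9532 in replicates 2 and 3. Or88a ranked 13507, through a summit at -444 bp next to a stronger one. The stronger one was an optimal peak of rank 1689 at -644 bp from Or88a and -480 bp from CG12402. Cpr12A ranked 18390 and Cpr73D 20075. Gr5a, a receptor for the sugar trehalose, ranked 20344 with no promoter summit in any replicate's own list, and its summit lay nearer to Tre1. A region of rank 9946 in replicate 3 overlapped the pooled region of Gr5a. The remaining genes of the strongest 20 were Gr77a, Cpr78Cb, Cpr65Ay, Gr59b, Cpr67Fa1, Cpr65Av, Ir54a, Ir76a and TwdlG, with ranks from 20371 for Gr77a to 25262 for TwdlG. No replicate ranked any of these 9 among its 5202 strongest regions, and the best single rank was 9061, for Cpr65Av in replicate 1.

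**Figure D2:**
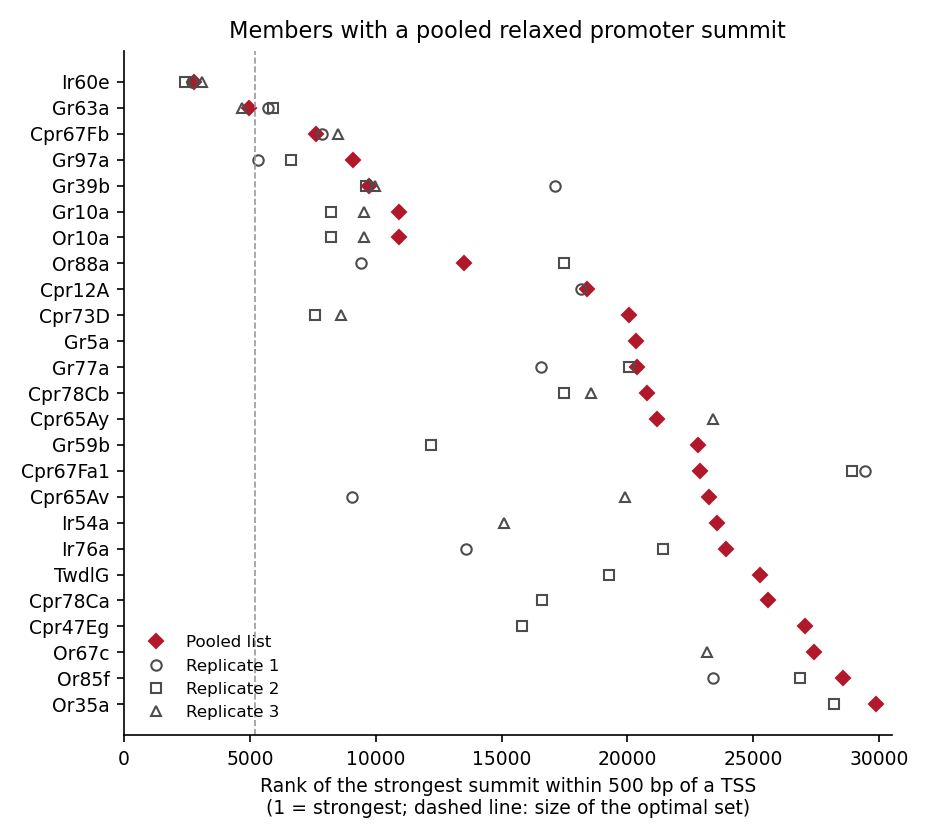
Rank of the strongest summit within 500 bp of a TSS for the 25 members with a pooled relaxed promoter summit, in the pooled list (red diamonds) and in replicates 1, 2 and 3 (open symbols). Rank 1 is the strongest region, the dashed line is the size of the optimal set (5202), and a missing symbol is a replicate with no summit there. Ir60e and Gr63a lie left of the line, and 16 members lie beyond rank 20000.

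Of 15 receptors and coreceptors listed by name for their known roles, 2 had a pooled promoter summit, Gr63a and Gr5a, against 54.2% of all genes. The coreceptors Ir8a, Ir25a and Ir76b had none, and their nearest optimal summits were 7031, 2570 and 74045 bp from a TSS. Replicate 2 alone listed a summit at Ir25a, ranked 22797. Gr21a, the partner of Gr63a in the carbon dioxide receptor, had its nearest optimal summit 38512 bp away. The Gr63a start faces Lamtor4, and the Gr21a start faces no gene within 500 bp. Whether this bears on their summits was not tested. Gr66a, a receptor for bitter compounds, Gr43a, a fructose receptor, and Gr28b, which has roles in light and temperature sensing, had none. The sugar receptor genes Gr64a to Gr64f, which form 1 cluster, had none in the pooled list. Single replicates listed weak ones at Gr64a (28176, replicate 2) and Gr64c (25120, replicate 3).

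The distance to the nearest optimal summit followed the same order. Its median was 16679 bp over members (quartiles 7316 and 39932 bp) and 5165 bp over other genes (367 and 16097 bp). By family the medians were 23678 bp for Or, 12168 bp for Gr, 12576 bp for Ir, 16040 bp for Cpr, 32591 bp for Ccp and 61392 bp for Twdl genes. The 7 Ccp genes lie in a single cluster, and 12 of the 23 Twdl genes lie in another. The Ccp and Twdl medians therefore rest largely on single places in the genome. Within 2 kb of a start, 16 members (5.73%) had an optimal summit, against 34.7% of other genes. In 13 of these 16 the nearest TSS belonged to a gene outside both classes, and the others were TwdlY, Gr89a and Cpr76Ba. Just inside the 500 bp window were Gr63a at 258 bp and Ir60e at 303 bp. Just outside were Or88a at 644 bp, Cpr65Ay at 753 bp, Gr32a at 755 bp, near the lysosomal enzyme gene Idua, and Cpr73D at 808 bp.

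**Figure D3:**
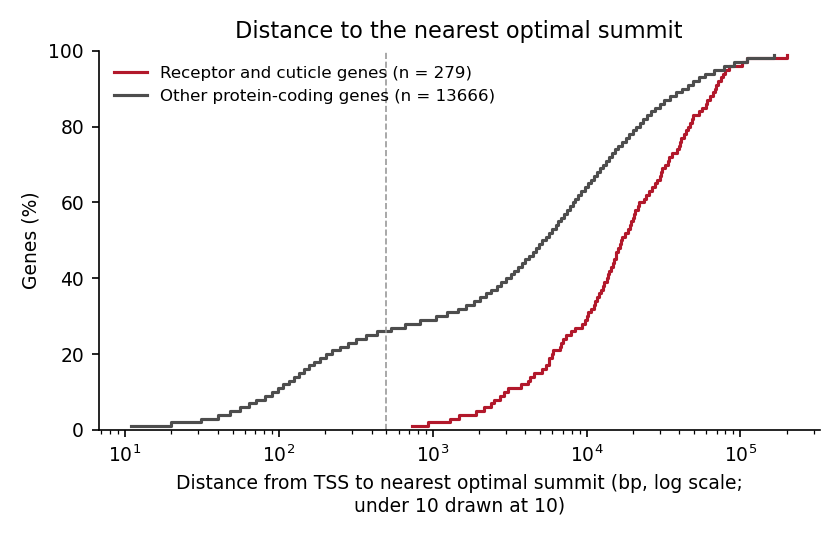
Cumulative share of genes (%) by distance from a TSS to the nearest optimal summit (bp, log axis), for receptor and cuticle genes (red) and other protein-coding genes (grey), drawn at percentiles 1 to 99. The dashed line marks 500 bp. The medians are 16679 bp for members and 5165 bp for other genes.

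The share of members with a promoter summit lay below that of the genes beside them. An optimal promoter summit was found for 0.717% of members and for 62 of the 344 genes of other classes that neighbour a member (18.0%, Wilson interval 14.3 to 22.4%). The remaining protein-coding genes had 26.9%. In the relaxed list the shares were 8.96% of members, 41.0% of these neighbours and 55.5% of the remaining genes. Head-to-head starts were found for 6.09% of members, 14.0% of the neighbours and 28.1% of the remaining genes, and their part in these shares was not tested.

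Inside gene bodies, 1 optimal summit was found in 657 kb of member sequence. That is 0.152 per 100 kb, against 3.18 in the bodies of other genes, and 1 of 279 members, against 13.0% of all genes. The gene was Cpr73D (FBgn0036680, chr3L:16939100-16957689, minus strand), a cuticle gene whose body overlaps that of Ogdh, the gene of a subunit of the oxoglutarate dehydrogenase complex, on the other strand. The peak at chr3L:16956666-16957095 ranked 2496, and the strongest overlapping regions of replicates 1, 2 and 3 ranked 4429, 1691 and 2370. Its summit lay in an intron of both genes, 808 bp downstream of the Cpr73D start and at -558 bp from the nearest start of Ogdh. The 151 bases centred on the summit are shown because this is the only optimal summit in a member's body, and none of the 6 motifs described below matched in them.
Cpr73D intron (chr3L:16956806-16956956, plus strand): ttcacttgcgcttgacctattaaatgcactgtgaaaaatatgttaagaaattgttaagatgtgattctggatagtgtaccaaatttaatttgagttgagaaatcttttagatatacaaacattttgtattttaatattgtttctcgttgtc

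The relaxed list placed summits in the bodies of 18 members, or 6.45%, against 38.7% of all genes. Their density was 4.26 per 100 kb in members and 22.1 in other genes. In introns it was 3.77 per 100 kb in members and 25.9 in other genes. In coding exons it was 3.55 per 100 kb in members and 6.34 in other genes, so the difference was smaller there. Members are short, with a median length of 1487 bp, against 2196 bp for other genes, which is why densities are given.

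A cluster was taken as 3 or more genes of 1 class with at most 20 kb between neighbours. There were 31, with 132 of the 279 members: 17 of receptor genes, with 62 members, and 14 of cuticle genes, with 70. Across their full spans, 28 of the 31 clusters held no optimal summit and 18 held no pooled relaxed summit. Whole arms held 3.89 optimal and 22.4 relaxed summits per 100 kb. Spans of like length elsewhere were not counted, so how often they would be empty was not tested. The largest was the Tweedle cluster from TwdlM to TwdlD on 3R, with 12 genes over 21.9 kb and no summit in either list. Its nearest optimal summits were 61.4 kb to the left and 73.3 kb to the right. The Ccp84Ag to Ccp84Aa cluster, with 7 genes over 18.2 kb, also held none in either list. In both clusters, single replicates listed weak promoter summits. These were at TwdlM (22310, replicate 3), TwdlB (20916, replicate 2) and Ccp84Ae (27972, replicate 3). The other large cuticle clusters were Cpr49Aa to Cpr49Ah (8 genes), Cpr47Ea to Cpr47Eg (7 genes) and Cpr65Au to Cpr65Az (7 genes), with 3, 6 and 8 relaxed summits. The largest receptor clusters, Gr64a to Gr64f (6 genes), Ir7b to Ir7g (6 genes) and Gr22e to Gr22a (5 genes), held no summit in either list.

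The gaps between neighbours of a cluster held 3 optimal summits in 197 kb, or 1.53 per 100 kb. These gaps run across any other genes that lie between neighbouring members. Gaps between other neighbouring genes, which contain no protein-coding gene body, held 11.7 per 100 kb, and whole arms 3.89. The strongest lay between Ir60d and Ir60e, at rank 1113 and at -34 bp from Brca2, the fly counterpart of a DNA repair gene, which lies in that gap. Its overlapping regions ranked 1212 and 966 in replicates 1 and 3, and replicate 2 had none. The second lay between TwdlX and TwdlY, at rank 5061, inside an intron of goe, with 4116, 10028 and 6357 in replicates 1, 2 and 3. The third lay between Cpr65Ax2 and Cpr65Ay, at rank 5187 and at -500 bp from CG13297, with 6177, 12720 and 4288. The summit between TwdlX and TwdlY had a member's start as its nearest TSS, that of TwdlY at -1126 bp, and its 151 bases are shown for that reason, with an E-box in capitals.
TwdlX to TwdlY (chrX:16733746-16733896, plus strand): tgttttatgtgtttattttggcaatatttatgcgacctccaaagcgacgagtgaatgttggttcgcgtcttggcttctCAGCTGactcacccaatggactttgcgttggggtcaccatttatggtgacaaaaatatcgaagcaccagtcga

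Without the bodies and promoters of other genes, 131 kb of gap remained and held 0 optimal summits, where 3 would be 2.3 per 100 kb. In the gaps between other genes, 2.77 per 100 kb remained once all promoters there were left out. The limit is close to that value, and the summit near CG13297 was left out at the very edge of its promoter window. The relaxed list gave 19.3 per 100 kb in the cluster gaps and 40.1 in other gaps as a whole, but 23.0 in the cluster gaps and 22.5 in other gaps with those parts left out, a restriction on the relaxed list that was added after seeing the data. The cluster gaps kept the promoters of their own members in this count. In the gap between Gr93a and Gr93b, 7 relaxed summits were found, ranked from 6765 to 20608.

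Optimal summits became more frequent outside the clusters. Within the 392 kb of cluster spans they numbered 3, or 0.765 per 100 kb. In successive 10 kb bins on both sides, out to 50 kb, the densities were 4.03, 4.35, 5.48, 3.55 and 3.87 per 100 kb. In the first 10 kb, receptor clusters had 5.0 per 100 kb and cuticle clusters 2.86. The relaxed list gave 11.5 per 100 kb within the spans and 21.6 in the first 10 kb outside.

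**Figure D4:**
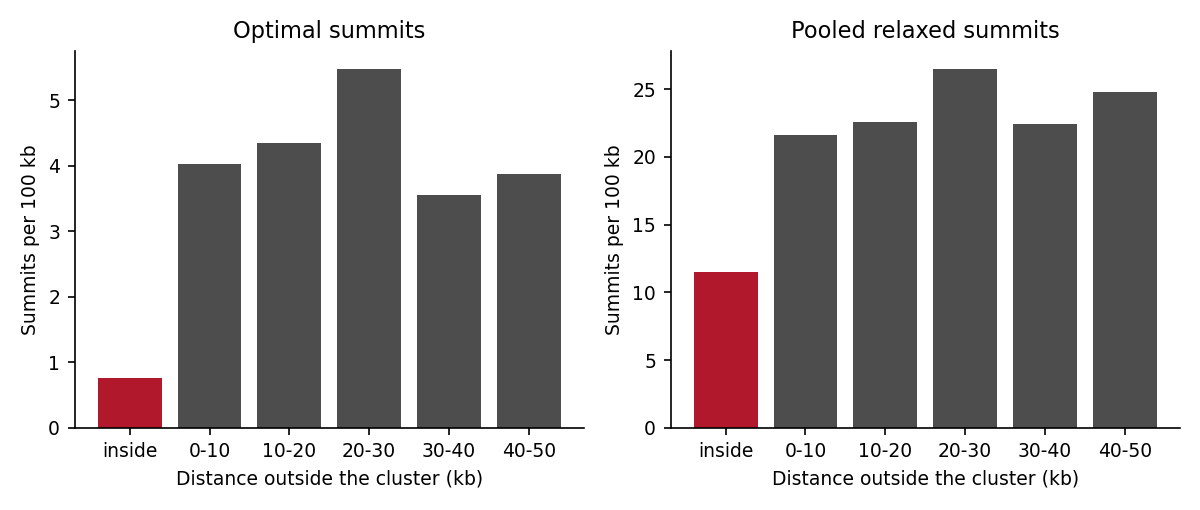
Summits per 100 kb inside the 31 clusters (red) and in 10 kb bins outside both edges (grey), for the optimal set (left) and the pooled relaxed list (right). The optimal density is 0.765 inside and between 3.55 and 5.48 outside.

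Other genes of the same pathways were counted from lists of symbols. Among 78 chemosensory partners, mainly odorant-binding proteins, 2 (2.56%) had an optimal promoter summit, against the background of 26.2%. These were Obp99b (rank 2862) and Obp83g (rank 3667), with 3452, 3473 and 2261 for Obp99b and 4426, 3553 and 4424 for Obp83g in replicates 1, 2 and 3. Of 41 other cuticle proteins and related secreted proteins, such as the Lcp larval cuticle genes, 0 had one, where 3 would be 7.32%. Of 8 factors of sensory neuron identity, such as acj6 and ato, 0 had one, but 3 of 8 would be 37.5%, so this list is too short to place. Of 18 genes that build or modify the cuticle, 4 had one (22.2%), and the Wilson interval of 9.0 to 45.2% holds the background. These were rtv (rank 443), which organises chitin, Cht7 (1259), a chitinase, Alas (1462), an enzyme of haem synthesis, and Idgf2 (2542), a chitinase-like growth factor. In the relaxed list the counts were 11 of 78, 5 of 41, 1 of 8 and 12 of 18, against 54.2% of all genes.

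The promoter sequences of the members differed in their motifs from those of genes in general. Exact matches on either strand were counted from 250 bp upstream to 50 bp downstream of the start farthest upstream. The 6 motifs were the DNA replication-related element DRE (TATCGATA), the motif 1 core (GGTCACAC), an E-box (CAGCTG), the TATA box (TATAAA), an initiator (TCAGT) and GAGA (GAGAG), none of which contains another. DRE was found in 0.717% of the 279 members and 9.36% of all 13945 genes. The motif 1 core was found in 0 of 279 members and 7.7% of all genes. The E-box was found in 28 of 279 members and in 17.7% of all genes. Genes with an optimal promoter summit had DRE in 15.9%, the motif 1 core in 12.2% and the E-box in 22.5%. Genes without one had 7.03%, 6.11% and 15.9%. Within 150 bp of the 5202 optimal summits, wherever they lay, the shares were 7.4%, 5.09% and 15.6%, each below that of all promoters. The initiator letters (52.7% of members and 51.5% of all genes) and GAGA (24.0% of members and 29.7% of all genes) were closer. By class, GAGA was found in 20.1% of receptor promoters and 31.0% of cuticle promoters. The median GC content was 41.0% in members (39.3% in receptor genes and 45.2% in cuticle genes) and 38.0% in all genes. Its part in these shares was not tested.

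TATAAA was found in 60.9% of members and 45.8% of all genes. The families differed, with 46 of 59 Or, 18 of 60 Gr, 33 of 60 Ir, 49 of 70 Cpr, 6 of 7 Ccp and 18 of 23 Twdl promoters. At the place where a TATA box acts, 40 to 16 bp upstream on the strand of the gene, a window added after seeing the data, it was found in 53.0% of cuticle promoters and 2.79% of receptor promoters. The share was 7.73% of all genes and 2.33% of genes with an optimal promoter summit. The promoters of 3 cuticle genes from large clusters show this box in capitals, and that of Gr21a, which holds none of the 6 motifs in this window, stands beside them. Each runs from 150 bp before to 30 bp after the TSS.
Ccp84Aa (chr3R:6703934-6704113, plus strand): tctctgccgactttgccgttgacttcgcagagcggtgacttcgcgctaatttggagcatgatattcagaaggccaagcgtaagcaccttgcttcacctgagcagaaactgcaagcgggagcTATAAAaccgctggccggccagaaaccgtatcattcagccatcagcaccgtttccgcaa
TwdlD (chr3R:26639875-26640054, plus strand): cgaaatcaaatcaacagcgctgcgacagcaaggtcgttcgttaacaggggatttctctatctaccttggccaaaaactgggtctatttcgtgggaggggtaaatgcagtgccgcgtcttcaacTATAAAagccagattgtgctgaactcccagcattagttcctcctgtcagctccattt
Cpr65Av (chr3L:6139945-6140124, minus strand): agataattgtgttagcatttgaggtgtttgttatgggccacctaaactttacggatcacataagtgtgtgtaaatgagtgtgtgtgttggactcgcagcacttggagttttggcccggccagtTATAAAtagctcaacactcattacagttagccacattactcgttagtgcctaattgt
Gr21a (chr2L:780332-780511, plus strand): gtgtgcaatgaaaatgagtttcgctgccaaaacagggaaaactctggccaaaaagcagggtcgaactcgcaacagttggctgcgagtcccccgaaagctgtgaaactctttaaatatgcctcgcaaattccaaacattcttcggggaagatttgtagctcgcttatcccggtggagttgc
The box began at -29 bp in Ccp84Aa and at -27 bp in both TwdlD and Cpr65Av. Of these 4 genes, Cpr65Av had a relaxed promoter summit (rank 23240), and none had an optimal one.

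**Figure D5:**
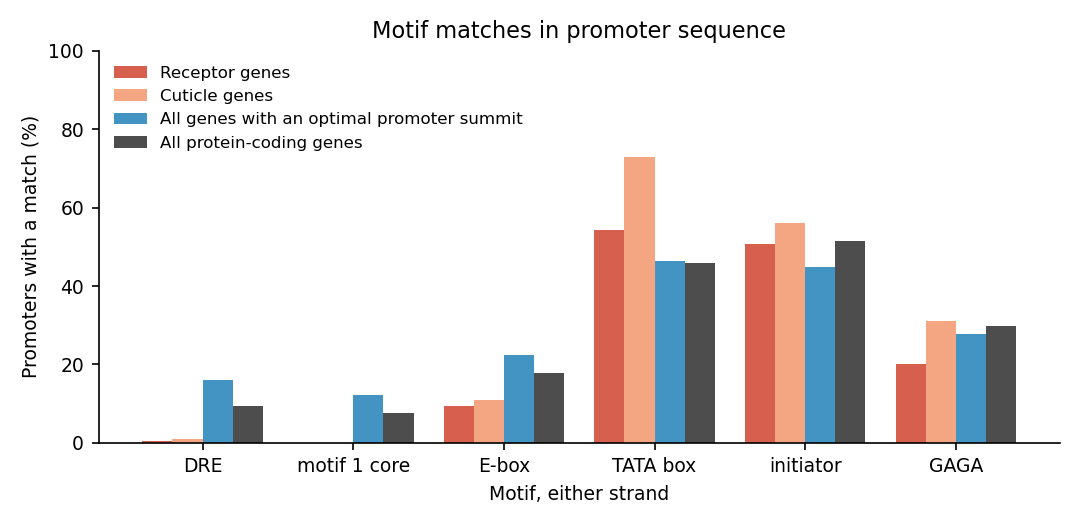
Share of promoters (%) with an exact match to each of 6 motifs on either strand, for receptor genes, cuticle genes, all genes with an optimal promoter summit and all protein-coding genes. DRE and the motif 1 core are at or near 0 in both classes of member, and the TATA box reaches 73.0% in cuticle genes, against 45.8% in all genes.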

How the data were processed

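The 3 replicates of whole embryos form 1 group by the labels, and their chromatin was sheared to fragments of 200 to 800 bp. The authors deposited peak lists on dm6, with a signal value per region whose scale is not stated, so it served for ordering the regions of each list. The relaxed lists used here hold 30000, 29643 and 30000 regions in replicates 1, 2 and 3, per the deposited files. The sources used here do not name the aligner, the peak caller or the reproducibility threshold, and depth is unknown. Lists on dm3 were not used.

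Genes came from Ensembl release 115 (19252 TSS positions) and sequence from the RefSeq copy of Release 6, whose arms equal those of dm6. Summits were counted with Python 3.11.15, numpy 2.4.6 and pandas 2.3.3, and a region was matched to a replicate by at least 1 shared bp. Shares have 95% Wilson intervals (scipy 1.17.1), and a count of 0 has the limit of 3 counts. The counting was tested on simulated summits. No test across genes was made.

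The members, lists and alternatives were chosen with earlier results of these data known. Named were members with an optimal summit, the 20 strongest relaxed promoters, the largest clusters, coreceptors and known receptors, the strongest listed genes and the nearest neighbours. Gr32a, Or88a, Gr93a, Gr93b, Gr89a and Cpr76Ba were named after their values were seen. Alternatives were other windows, stricter lists, other TSS and gap rules, and each replicate left out.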

Additional observations from a re-analysis of the deposited data

How the results depend on the processing

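In every alternative for promoter summits, gene bodies and whole gaps, members stayed below the genes compared with them. Shares in brackets are of all protein-coding genes. Support in a replicate means overlap with its 5202 strongest regions for optimal peaks, and with any of its relaxed regions for relaxed ones. Optimal promoter counts, 2 in the main count, were 0 with a 200 bp window (19.6%), 6 with 1000 bp (29.2%), 0 with the strongest 50% of peaks (15.4%) and 1 with peaks supported by all 3 replicates (20.1%). They were 0 without head-to-head genes (16.4%), 0 with the nearest TSS only (19.4%), and 1 without each replicate in turn (21.2 to 21.8%). Relaxed counts, 25 in the main count, were 7 with 200 bp (41.9%), 41 with 1000 bp (60.7%), 8 with the strongest 50% (44.4%), and 9 to 11 without each replicate (42.7 to 45.9%). The replicate share, 0.478%, was 0.119% at 50% of the set size (15.3%), 2.51% over 10000 regions (37.0%), 0% with 200 bp (19.2%) and 1.67% with 1000 bp (28.7%), and 0.358 to 0.538% without each replicate (25.2 to 25.9%).

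Body density, 0.152 per 100 kb, was 0 in sequence of the member only (3.19 in other genes) and 4.26 with relaxed regions (22.1), and stayed at 0.152 without each replicate. Gap density, 1.53, was 0 without other genes and their promoters (2.77 in other gaps) and 19.3 with relaxed regions (40.1). It was 0 to 0.509 without each replicate, at 0 without replicate 1 and without replicate 3. The median distance to relaxed summits was 4969 bp in members and 323 bp in other genes. The TATA box was matched within 100 bp either side in 50.9% of members and 29.1% of all genes, and on the sense strand in 52.0% of members and 32.1% of all genes. The initiator gave 43.0% of members and 42.7% of all genes, and 40.5% and 36.1% on the sense strand. GAGA gave 16.8% of members and 22.4% of all genes, and 9.32% and 16.7% on the sense strand.

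The cause of these changes was not tested, beyond the narrower windows and shorter lists themselves. Leaving out a replicate kept the peaks supported by both others and did not remake the optimal set. With unknown depth, a count of 0 says only that no region was listed.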
